A study of Rattus norvegicus with 16 samples.

Results

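The comparison set soft hydrogels at 48 h against the same gels at 12 h, in 8 of the 16 libraries of the series. The gels were made of hyaluronic acid, had a stiffness of 100 Pa and held neural stem cells from the hippocampus of adult rats. At each time, 2 libraries came from gels without RGD and 2 from gels that carried it, so that 4 libraries at 48 h stood against 4 at 12 h. All groups shared a medium for mixed differentiation, DMEM-F12 with N2, 1 μM retinoic acid and 1% FBS. The other 8 libraries came from stiff gels (1.2 kPa) and are used only for comparison with the soft gels. All libraries were made by 3′ tag sequencing, which reads transcripts near their 3′ ends. The sources used here do not say whether replicates were separate cultures, so the p-values measure the spread between these libraries, which may be technical.

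Adult hippocampal neural stem cells divide and keep the capacity to form neurons, astrocytes and oligodendrocytes. Retinoic acid binds nuclear receptors that switch genes on directly, and it is widely used to start neuronal differentiation in culture. RGD is the short peptide motif of matrix proteins to which integrins attach, while hyaluronic acid itself is bound by other receptors such as CD44. All groups had the same medium and the same kind of gel, so what each contributed to a change with time cannot be told apart. Each library is bulk RNA, in which a change in the share of a cell type and a change in RNA per cell also cannot be told apart.

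The table gives versioned Ensembl transcript identifiers, and no source used here pairs them with gene names: 0 of 41078 identifiers could be matched in a table of 47357 rat genes. The cell type could therefore not be checked against its markers, gene groups by function could not be formed, and no sequence is shown. Transcripts are described below by direction, size of change, abundance and behaviour in other libraries, and at most 2 are named in each direction. In total 14282 transcripts had a count in the soft libraries, and 7308 passed the filter on low counts and were tested.

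Total counts were 1829779 to 2157015 in the 12 h libraries and 2403144 to 2816114 in the 48 h libraries, so that depth moved with time (exact permutation test, two-sided, p = 0.0286, the smallest that 4 against 4 can give; 0.0571 adjusted over 6 measures). Thinned at random to the lowest total, a library contained 10440 to 10639 transcripts with a count at 12 h and 10142 to 10320 at 48 h. At an equal total each 48 h library thus contained fewer than each 12 h library (exact permutation test, p = 0.0286), a difference that missed 0.05 after adjustment (0.0571). The depth outside the 2 most abundant transcripts was not equal after this thinning. With these 2 removed before thinning, a check added after seeing the data, the ranges were 10438 to 10564 at 12 h and 9913 to 10285 at 48 h (exact permutation test, p = 0.0286, not adjusted). The most abundant transcript took 38.8 to 42.0% of counts at 12 h and 37.5 to 39.8% at 48 h (exact permutation test, p = 0.0571, adjusted 0.0686). The replicates lay closer together at 12 h than at 48 h, with a common biological coefficient of variation of 0.0979 against 0.222.

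The time of harvest separated the libraries. The first principal component of log2 CPM (counts scaled to library size) contained 54.2% of the variance. On it the 4 libraries at 12 h lay between -33.3 and -26.2. At 48 h the 2 libraries without RGD lay at 34.5 and 38.5, and replicate 1 with RGD lay at 31.9. Replicate 2 with RGD at 48 h lay apart from these at 14.8, nearer to the 12 h libraries. The second component (12.0%) parted the 2 replicates without RGD at 48 h, at -25.6 and 25.2.

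A position on a time score placed each soft library by transcripts called without it. The score is the mean log2 CPM of the transcripts that rose minus that of those that fell in the other 7 soft libraries, with the mean of the others at 12 h set to 0 and the mean of the others at 48 h set to 1. At 12 h the positions were 0.143 and 0.122 without RGD and 0.0199 and 0.00477 with RGD. At 48 h they were 0.993 and 1.036 without RGD, and 0.958 and 0.631 with RGD. The lowest value at 48 h was again that of replicate 2 with RGD. Each position has its own transcripts and its own 0 and 1, so the values are not on a common scale. The main counts and medians are given with and without this library.

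**Figure D1:**
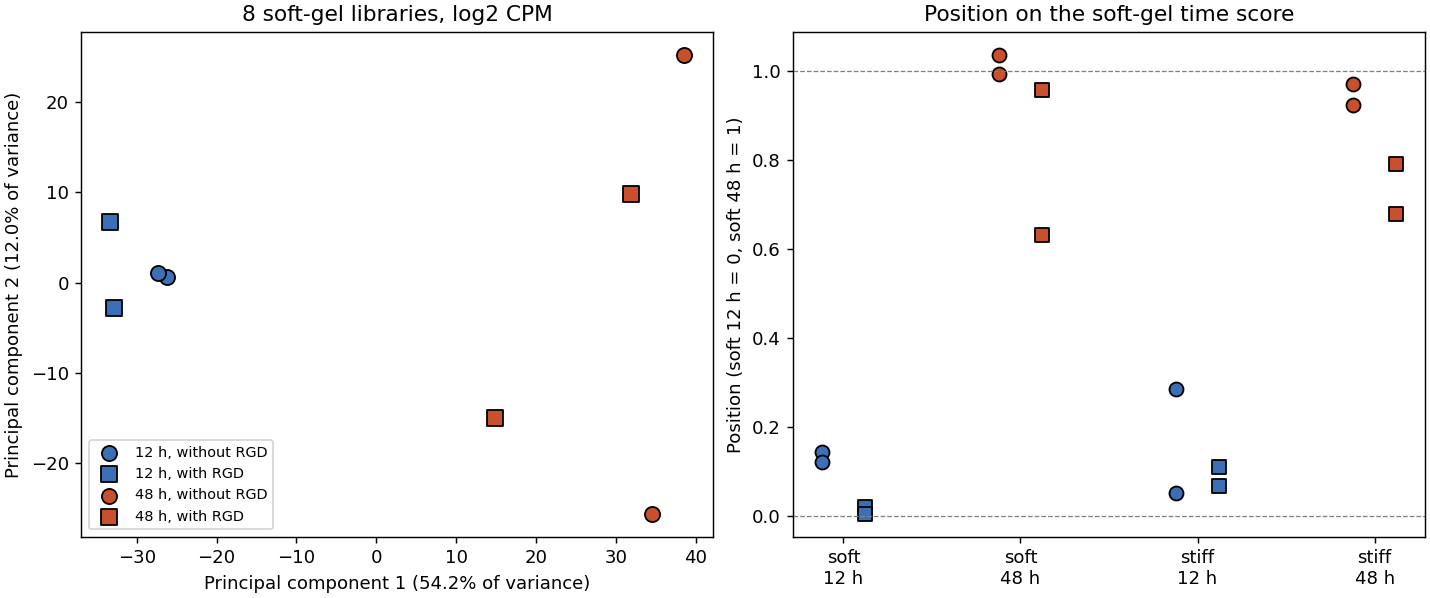
Left, principal components 1 and 2 of log2 CPM for the 8 soft-gel libraries, where component 1 parts 12 h from 48 h and 1 of the 48 h libraries with RGD (14.8) lies nearest to 12 h. Right, position of each library on the time score (no unit), with circles for gels without and squares for gels with RGD; the stiff libraries were placed by transcripts chosen in soft gels alone, and their 48 h positions (0.680 to 0.971) lie above all 12 h positions.

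Between 12 h and 48 h in soft gels, 1061 transcripts rose (14.5% of those tested) and 1056 fell (14.4%). TMM scaling centres the changes near 0, so the balance of the 2 directions is not read as a result. RLE factors in place of TMM gave 1074 higher and 1049 lower. With TMM kept, limma-voom gave 998 higher and 1099 lower, and a filter of 10 CPM in 2 libraries gave 994 higher and 912 lower. The risers had a median log2 fold change of 0.83, with lower and upper quartiles of 0.63 and 1.18. For the fallers the median was -0.92, with quartiles of -1.39 and -0.65. With the 9 called transcripts that had 3 or fewer counts at one time set to the bound that 3 counts allow, both medians stayed as they were, as so few members far from a median cannot move it. Over all 7308 transcripts the median log2 fold change was -0.0053, and the median size of a change was 0.40. The tests were edgeR's quasi-likelihood tests with RGD as a covariate, and a transcript was called at a Benjamini-Hochberg adjusted p under 0.05.

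Most of the calls were small. Of the 2117, 1264 differed by 2-fold or less, 853 by more than 2-fold, 203 by more than 4-fold and 66 by more than 8-fold. Among the large changes falls outnumbered rises: 133 fell and 70 rose by more than 4-fold, and 47 fell and 19 rose by more than 8-fold. Without replicate 2 with RGD at 48 h, 188 fell and 88 rose by more than 4-fold, and 66 fell and 23 rose by more than 8-fold. In edgeR's test against a fold of 1.5, 585 transcripts were shown to have moved beyond it, 267 upward (3.65% of those tested) and 318 downward (4.35%).

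The 2 times did not overlap for 2007 transcripts (27.5% of those tested), 957 with all 48 h libraries above all 12 h libraries and 1050 with all below. Among the 2117 calls, 1652 (78.0%) did not overlap. Among the 585 beyond 1.5-fold, 573 did not overlap, nor did 200 of the 203 calls over 4-fold. The calls were made on these same libraries, so their lack of overlap is a description and no further test.

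Thinning all libraries to the lowest total left 1941 calls, 1005 higher and 936 lower, of which 1845 were among the 2117. Without replicate 2 with RGD at 48 h, 2395 were called, 1259 higher and 1136 lower, with 1954 of the 2117 among them. In that fit 1047 calls were over 2-fold, 276 over 4-fold and 705 beyond 1.5-fold by the test. The median log2 fold changes were then 0.86 for the risers and -1.0 for the fallers.

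The called transcripts made up a large part of the RNA outside the 2 most abundant transcripts, which were not called themselves. Risers contributed 14.5 to 16.1% of these counts in the 12 h libraries and 22.8 to 27.2% in the 48 h libraries. Fallers contributed 23.1 to 24.7% at 12 h and 11.8 to 16.6% at 48 h. These shares describe the calls, which were made on the same libraries, and are no further test. Replicate 2 with RGD at 48 h had the lowest share of risers (22.8%, the other 48 h libraries 26.5 to 27.2%) and the highest share of fallers among the 48 h libraries (16.6%, the others 11.8 to 14.6%).

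**Figure D2:**
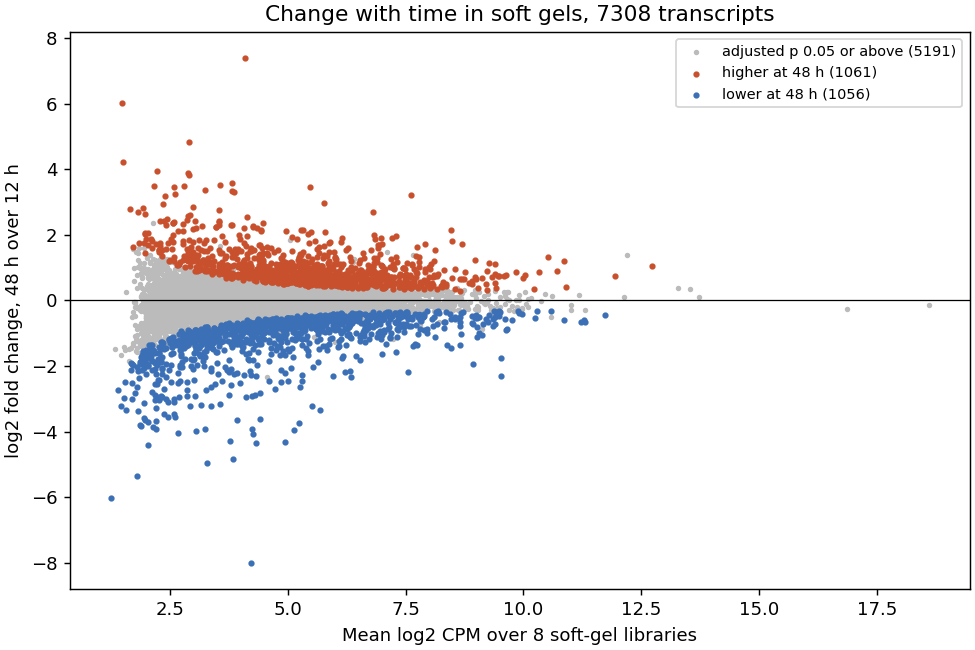
Each point is 1 of the 7308 tested transcripts, with its mean log2 CPM over the 8 soft libraries on the x axis and its log2 fold change (48 h over 12 h) on the y axis. The 1061 higher and the 1056 lower at 48 h lie on both sides of 0 at all abundances, and 43 of the 66 called changes of more than 8-fold belong to the 1827 transcripts of lowest abundance.

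The first of the named transcripts that rose was ENSRNOT00000018581.4, which went from near absence to a moderate level. At 12 h it had 0 and 0 counts without RGD and 0 and 1 with RGD. At 48 h it had 60 and 114 counts without RGD and 123 and 35 with RGD. All 48 h libraries lay far above all 12 h libraries, and the lowest of the 48 h values was that of replicate 2 with RGD. The levels were 0.129 ± 0.258 CPM at 12 h and 29.9 ± 13.5 CPM at 48 h (SD, n = 4 each). The summed counts, 1 against 332, gave a ratio of 247 after scaling, with a 95% counting interval of 44.0 to 9789 (edgeR adjusted p = 2.95e-07).

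The second was ENSRNOT00000084563.1, which was present at a low level from the start. At 12 h the gels without RGD had 0.888 and 0.997 CPM, and those with RGD had 2.73 and 3.10 CPM. At 48 h the gels without RGD had 21.2 and 13.7 CPM, and those with RGD had 37.5 and 19.99 CPM. The times did not overlap. At 12 h both libraries with RGD lay above both without, on 5 and 6 counts against 2 and 2, and this order was not tested. The test of RGD by time, a different question, did not call the transcript (edgeR adjusted p = 0.999). Its log2 fold change with time was 3.59 ± 0.36 (SE, edgeR adjusted p = 8.16e-08).

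Among those that fell, ENSRNOT00000022549.4 changed from a moderate level to near absence. At 12 h it had 84 and 54 counts without RGD and 94 and 70 with RGD. At 48 h it had 0 and 0 counts without RGD and 0 and 1 with RGD, and the single count was in replicate 2 with RGD. The levels were 37.9 ± 10.1 CPM at 12 h and 0.104 ± 0.208 CPM at 48 h (SD, n = 4 each). The summed counts, 302 against 1, gave a ratio of 12 h over 48 h of 406, with a 95% counting interval of 72.3 to 16080 (edgeR adjusted p = 2.06e-11).

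ENSRNOT00000012667.8 fell as well and kept a few counts in each 48 h library. At 12 h the gels without RGD had 30.6 and 24.4 CPM, and those with RGD had 32.8 and 23.2 CPM. At 48 h the gels without RGD had 0.771 and 1.34 CPM, and those with RGD had 0.714 and 0.833 CPM. At each time the levels with and without RGD overlapped, and the 2 times did not. The log2 fold change was -4.83 ± 0.35 (SE, edgeR adjusted p = 3.36e-10).

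**Figure D3:**
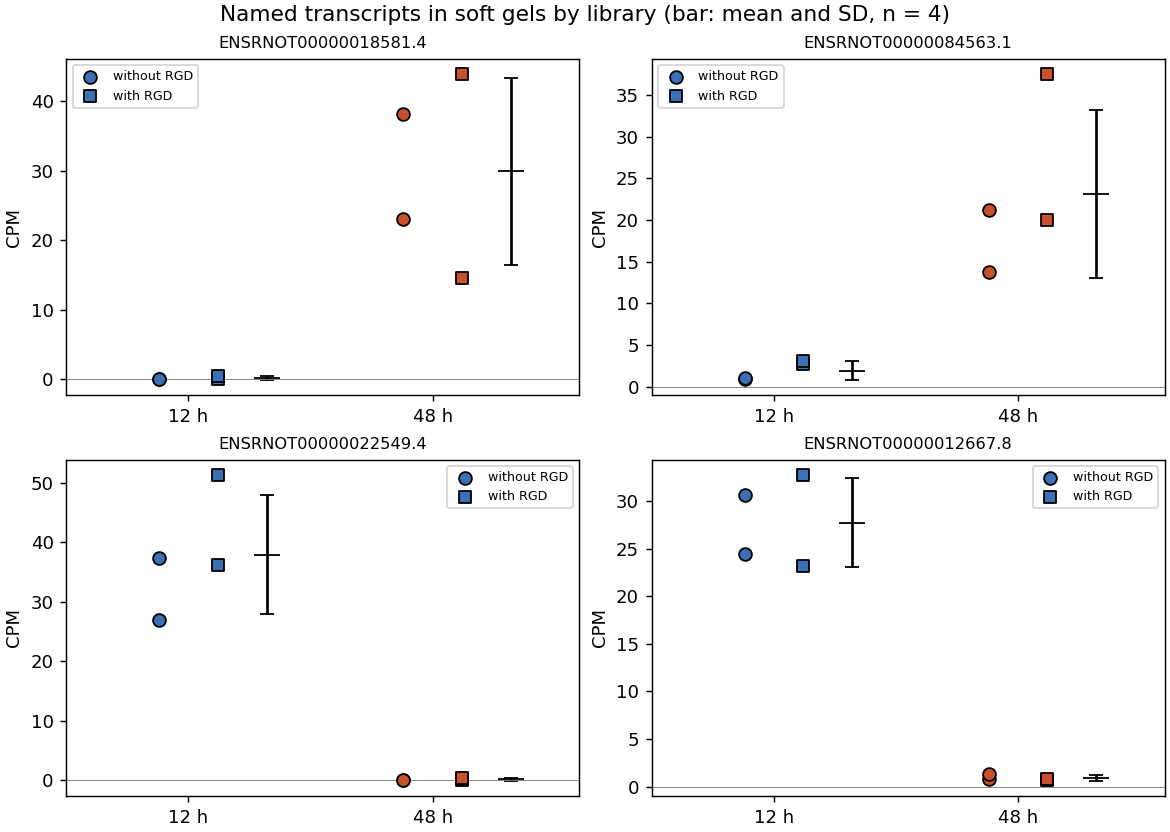
Levels (CPM, linear axis) of the 4 named transcripts in each soft-gel library at 12 h (blue) and 48 h (red), with circles for gels without and squares for gels with RGD, and the mean with SD over the 4 libraries of each time to the right of the points. In each panel the 12 h and 48 h libraries do not overlap; the upper 2 rose and the lower 2 fell.

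Such near-complete gains and losses were rare among the calls. Of the risers, 5 had 3 or fewer counts over the 4 libraries at 12 h. Of the fallers, 4 had 3 or fewer counts over the 4 libraries at 48 h. Over all deposited transcripts, 20 had no count at 12 h and a count in all 48 h libraries, with a median of 8 counts over them. Another 24 had no count at 48 h and a count in all 12 h libraries, also with a median of 8. Only 1 of each kind had enough counts to be tested, and both were called. Each could pass the filter only through the time at which it was present, so these calls are no further support. A transcript at 0 over the libraries of one time can still have had up to 3 counts expected there, which limits counting error only.

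Calls were spread over all abundances but differed in direction. With the tested transcripts in 4 classes of 1827 by mean CPM, 20.1% were called in the lowest class (2.37 to 9.62 CPM), 23.3% in the second, 30.5% in the third and 42.0% in the highest (from 53.5 CPM). In the lowest class 128 rose and 239 fell, and in the second 187 rose and 238 fell. In the third class 314 rose and 243 fell, and in the highest 432 rose and 336 fell. Fallers thus outnumbered risers in both classes of scarce transcripts, and risers outnumbered fallers in both classes of abundant ones. With transcripts kept in their classes from the main fit, the same order held with RLE factors, with thinned libraries and with DESeq2. It also held without the 2 most abundant transcripts and without replicate 2 with RGD at 48 h. The classes were not formed anew in these runs, and limma-voom was not checked in this way. The difference between classes was not tested.

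The called changes were larger where transcripts were scarce. Their median size on the log2 scale was 1.62 in the lowest class and 1.04, 0.76 and 0.66 in the following classes. The median count per library moved with this, from 12.2 in the lowest class to 241 in the highest, and its part in the result was not tested. Over all transcripts of a class, called or not, the median size was 0.54, 0.40, 0.34 and 0.33. The share shown to be beyond 1.5-fold was 8.87, 7.88, 6.19 and 9.09% from the lowest to the highest class, with no order by abundance.

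**Figure D4:**
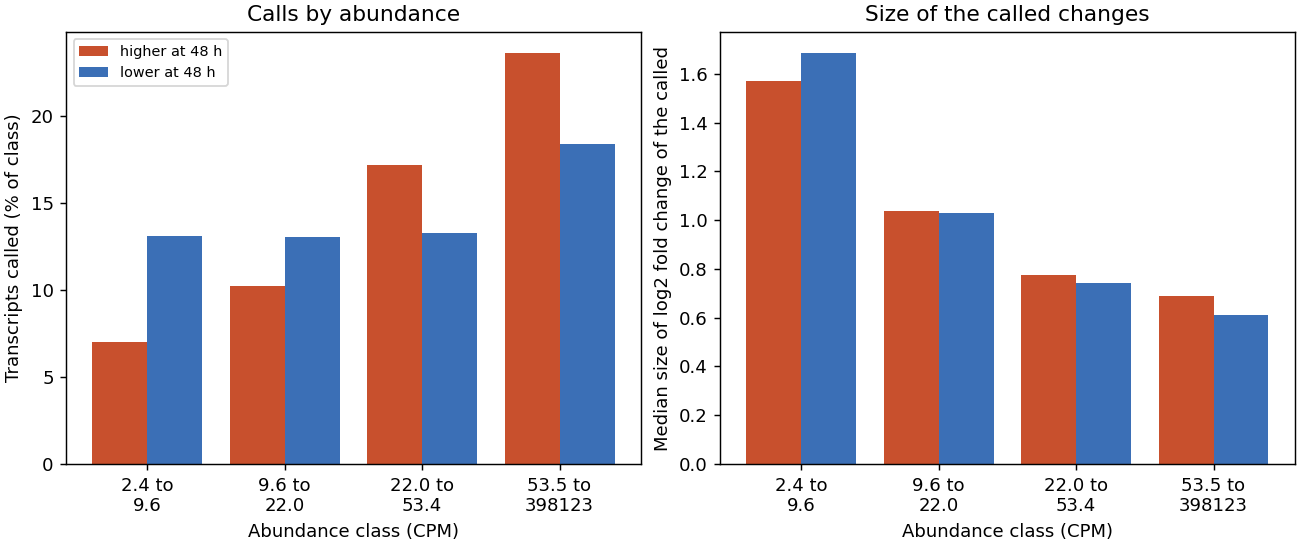
Left, percent of the 1827 transcripts of each abundance class (CPM range on the x axis) called higher (red) or lower (blue) at 48 h; the share of risers goes from 7.01 to 23.6% and that of fallers from 13.1 to 18.4%. Right, median size of the log2 fold change of the called transcripts, which is largest in the class of lowest abundance.

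The gels with and without RGD share no library, but both time effects came from the same fit of the soft libraries. That fit had a common filter, scaling and estimate of spread, so the 2 sets of calls are not separate tests. Without RGD, 2 libraries against 2, 1282 transcripts changed (17.5% of those tested), 668 up and 614 down. With RGD 794 changed (10.9%), 421 up and 373 down, or 823 without replicate 2 with RGD at 48 h. Both conditions called 564 transcripts in the same direction, which is 44.0% of those called without RGD and 71.0% of those called with RGD, and 0 in opposite directions. Of the 1282 called without RGD, 1246 (97.2%) had the same sign with RGD. Of the 794 called with RGD, 785 (98.9%) had the same sign without it, where 76.8% of all tested transcripts had the same sign.

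The log2 fold changes in the 2 conditions had a correlation of 0.75 over the 7308 transcripts, and of 0.84 over the 2250 with a mean of 100 or more counts. These points share scaling and abundance, and the correlation is a description. Transcripts that rose in the 8 libraries had a median log2 fold change of 0.89 without and 0.79 with RGD. For those that fell the medians were -0.99 and -0.84. Without replicate 2 of the gels with RGD at 48 h, the medians with RGD were 0.92 and -0.93.

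The difference between the time effects with and without RGD was tested directly and called 0 transcripts by edgeR. The unadjusted p was under 0.05 for 286, fewer than the 365 of uniform p-values, with 0.0685 as the smallest adjusted p. With DESeq2 1 transcript was called and with limma-voom 0. Leaving out replicate 2 without RGD at 48 h gave 21 calls and leaving out its replicate 1 gave 7. The larger number of calls without RGD is therefore not shown to be a larger response. It also moved with single libraries. Without replicate 1 or 2 of the 12 h gels without RGD, 585 or 602 were called without RGD. With RGD the calls were 401 and 371 without replicates 1 and 2 at 12 h and 361 without replicate 1 at 48 h. They were 1191 and 1202 without replicates 1 and 2 of the gels without RGD at 48 h.

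RGD itself, with time as the covariate, called 0 transcripts in soft gels with each of edgeR, DESeq2 and limma-voom. By edgeR 500 had an unadjusted p under 0.05. The edgeR test called 4 without replicate 2 of the gels without RGD at 48 h and 10 with no filter on low counts. The median size of a log2 difference with RGD was 0.18 over all tested transcripts, against 0.40 with time in the same model.

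The stiff gels gave the same contrast in libraries that played no part in choosing the transcripts above. Fitted alone in the same way, they called 824 transcripts higher (10.9% of 7581) and 746 lower (9.84%) at 48 h. Of the 1054 soft-gel risers tested there, 1018 (96.6%) were above 0 in stiff gels and 558 (52.9%) were called higher, against 51.5% of all shared transcripts above 0. Of the 1045 fallers, 1002 (95.9%) were below 0 and 500 (47.8%) were called lower, against 48.5% of all shared transcripts below 0. None was called in the opposite direction. For the risers and fallers called without replicate 2 of the soft gels with RGD at 48 h, these sign shares were 94.0% and 92.4%. The share called in stiff gels was larger for large changes: 577 of 835 calls over 2-fold (69.1%) and 174 of 193 calls over 4-fold (90.2%) were called in the same direction. All 193 of the latter had the same sign in both gels. The 4 named transcripts were also called in stiff gels in the same direction. In the order given above, their log2 fold changes there were 8.80, 3.23, -5.08 and -4.36.

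Over the 7186 transcripts tested in both gels, the log2 fold changes had a correlation of 0.81, given as a description. It was 0.79 without replicate 2 of the soft gels with RGD at 48 h. Soft-gel risers had a median log2 fold change of 0.83 in soft and 0.55 in stiff gels, and fallers had -0.91 and -0.57. Choosing them in soft gels favours larger values there. Transcripts chosen the other way, by their calls in stiff gels, had medians of 0.79 in stiff and 0.75 in soft gels when higher, and -0.95 in stiff and -0.96 in soft gels when lower. The median size of the change was 0.40 over the 7308 transcripts tested in soft gels and 0.31 over the 7581 tested in stiff gels. These sets and fits differ, and a median size also takes in the spread between libraries. The difference was not tested.

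On the soft-gel time score, the stiff libraries at 12 h lay at 0.0516 and 0.285 without RGD and at 0.0662 and 0.11 with RGD. At 48 h they lay at 0.971 and 0.924 without RGD and at 0.791 and 0.680 with RGD. The stiff libraries of the 2 times did not overlap, although no stiff library had been used to choose the transcripts. In both gels the 48 h libraries with RGD lay below those without, and this order was not tested. The stiff libraries share a single score, whereas each soft library was placed on a scale of its own, which limits the comparison.

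The test of whether the time effect differs between soft and stiff gels, over all 16 libraries, called 0 transcripts with each of edgeR, DESeq2 and limma-voom. The unadjusted p was under 0.05 for 693 of 7876 by edgeR, against 394 if p-values were uniform. Leaving out replicate 1 of the soft gels without RGD at 48 h gave 26 calls, 2 with a higher and 24 with a lower time effect in soft than in stiff gels. Leaving out 1 of 3 other libraries gave 1 call each: replicate 1 of the stiff gels with RGD at 48 h, the first 12 h replicate of those without RGD, or replicate 2 of the soft gels with RGD at 48 h. With no filter on low counts, the edgeR test on all 16 libraries called 32 transcripts, 16 with a higher and 16 with a lower time effect in soft gels. Among the 7876 transcripts that passed the filter, the edgeR test on all libraries showed none to be particular to soft gels in its change with time.

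**Figure D5:**
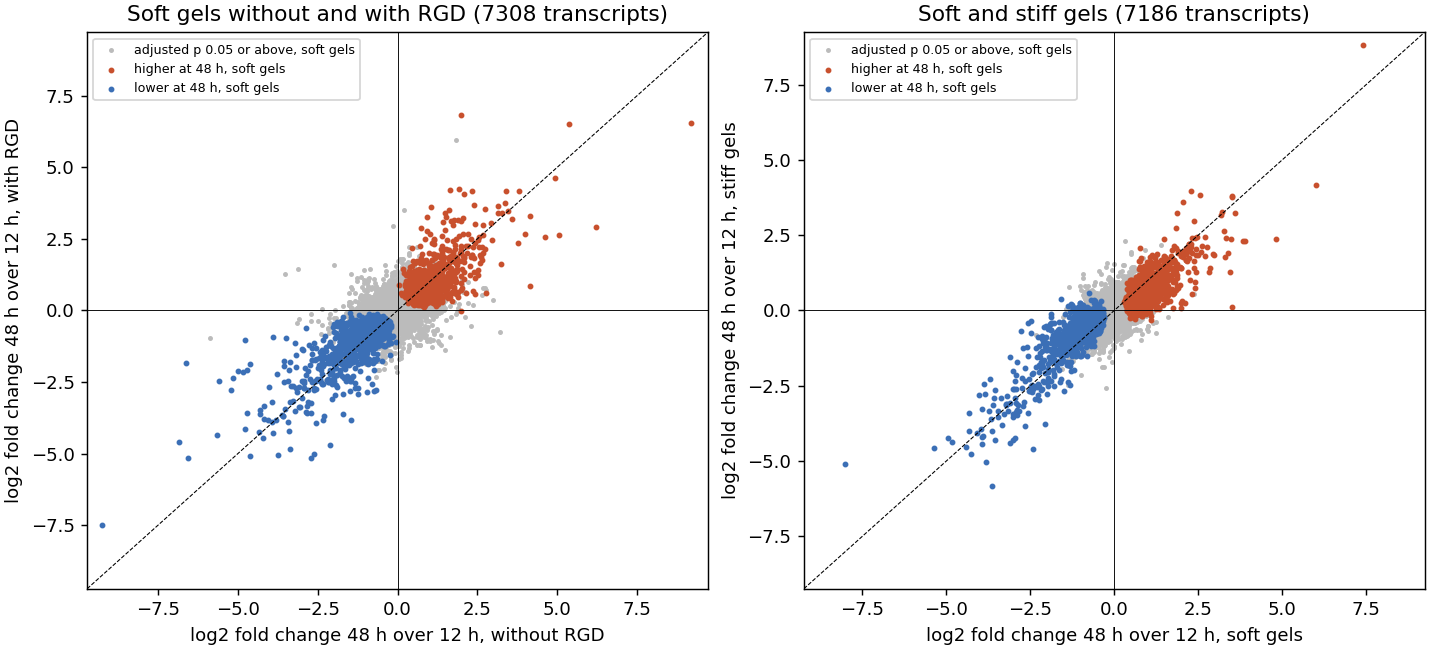
Log2 fold changes (48 h over 12 h) of single transcripts, soft gels without RGD against soft gels with RGD on the left and soft against stiff gels on the right, with the dashed line marking equal change. Red and blue points are the transcripts called higher and lower over the 8 soft libraries; on the right, 1018 of 1054 red points lie above 0 and 1002 of 1045 blue points lie below 0 on the stiff axis.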

How the data were processed

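The authors deposited whole-number counts per versioned Ensembl transcript, with no normalization. FastQC, HISAT2 2.1.0, HTSeq and build rn6 were used, per the submitters' processing notes, with the annotation release, strand setting, counting mode and any molecular identifiers not given in the sources used here. Isoforms and overlapping or antisense genes may therefore share reads. Columns were matched to samples by title, and groups follow stiffness, RGD and time in the labels.

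The 8 soft libraries were fitted alone with edgeR 4.0.16 in R 4.3.3: the filter filterByExpr with a minimum count of 10 and a total of 15, whose transcripts contained 99.5 to 99.6% of each library's counts, TMM scaling (factors 0.931 to 1.065) and a robust quasi-likelihood model of RGD plus time. A model with 1 mean per group gave the effects within RGD conditions. Changes beyond 1.5-fold were tested with glmTreat. The SE is the log2 fold change over the square root of F, an approximation. Log2 CPM used a prior count of 2. Uniform p-values would give 365 of 7308 under 0.05. Named transcripts are the first 2 in each direction by log2 fold change among calls with a mean of 20 or more counts and the same sign with and without RGD (944 higher and 816 lower qualified). Intervals are exact and cover counting error only.

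Replicates differed beyond sampling noise in each soft group (chi-square per degree of freedom 2.68 to 14.9). Alternatives were RLE factors, DESeq2 1.42.0, limma-voom (limma 3.58.1), other filters, no robust estimation, a replicate block, a fit of all 16 libraries, removal of the 2 most abundant transcripts, thinning and leaving out each library. The lists and tests were chosen with earlier results of these data known. The fit was also run on simulated data with the same spread at both times. The spread here differed between the times, so that run does not show how the fit behaves on these libraries.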

Additional observations from a re-analysis of the deposited data

Results flagged for a closer look

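Among 26 checks of single measures over the 4 soft libraries of a time, 3 had 1 library far from the others. Chance flags about 1 in 20 of measures that vary continuously. Replicate 2 with RGD at 48 h had 22.8% of its counts outside the 2 most abundant transcripts in risers, below the 26.5 to 27.2% of the other 48 h libraries. ENSRNOT00000018581.4 stood at 0.516 CPM in replicate 2 with RGD at 12 h and at 0 in the other 3. ENSRNOT00000022549.4 stood at 0.416 CPM in replicate 2 with RGD at 48 h and at 0 in the other 3. Each of these 2 flags rests on 1 count. Any count beside values of 0 in the other 3 is flagged, so the rate of 1 in 20 does not apply to them.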

How the results depend on the processing

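The count of 2117 transcripts changed with time in soft gels was 1860 to 2245 under 12 other settings and 1579 to 2395 with each library left out, and 1517 or more of the 2117 were called in each. The count beyond 1.5-fold (585) was 438 to 705 over all settings run for it. The replicate number used as a block (replicate block) gave 2042 calls and changed no call of the 4 named transcripts and no other count by more than 1.5 times; same-numbered libraries at 12 h and 48 h shared little of their deviations (correlation 0.0071 without and -0.0445 with RGD), so that the numbers are not taken to pair them. With single libraries left out, where the lone replicate is assumed to vary like the other groups, calls without RGD were 585 to 1447, calls with RGD 361 to 1202, RGD by time 0 to 21, RGD 0 to 4 and stiffness by time 0 to 26. With no filter on low counts, RGD by time gave 4 calls, RGD 10 and stiffness by time 32. DESeq2 gave 1 call for RGD by time, and so did limma-voom with a spread of its own at each time, a setting chosen after the larger spread at 48 h was seen, which called 2182 transcripts for time. The 4 named transcripts kept their direction and an adjusted p of at most 0.00124 in every setting run. They were chosen as the largest changes among the calls of these libraries, which each setting reuses. Their persistence describes the processing and is no independent support. The cause of these shifts was not tested. With thinned libraries, and transcripts kept in their classes from the main fit, the lowest abundance class had 104 risers and 194 fallers. The main fit had 128 and 239 there. The highest class had 429 and 310, against 432 and 336. What depth contributed to this was not tested.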
